A study of Mus musculus with 6 samples.

Results

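The lysosomal proteases described here are 6 cathepsins (Ctsz, Ctss, Ctsh, Ctsd, Ctsb and Ctsl) and the cathepsin-processing protease legumain (Lgmn), set beside 2 of their inhibitors, cystatin F (Cst7) and cystatin C (Cst3), in spinal cord of mice carrying mutant SOD1. The genes were chosen as a list with earlier results of these data known, so their count is a description, and a probe set belonged to one of them when the platform annotation gave exactly that 1 symbol. All 9 were found, among 8251 genes with such a probe set, on 13 of 12422 probe sets that were not controls, and the probe set with the highest mean stands for its gene. Polyadenylated RNA was measured on 6 Affymetrix arrays, 1 for each of 3 genotypes at 75 and at 110 days of age, with 4 spinal cords behind every array. G93A-SOD1 mice carry the G93A form of superoxide dismutase 1, found in familial amyotrophic lateral sclerosis. Their strain is given as B6SJL-G93A-SOD1 at 75 days and as B6SJL-G93A-SOD1H at 110 days. WT-SOD1 mice carry the wild-type form on a B6SJL background at 75 days, with no strain stated for the array at 110 days, and the nontransgenic mice are B6SJL. No other allele or agent is named for any group. The sex of the mice, the promoter of the transgenes and their copy number are not given in the sources. By the submitters' description, G93A-SOD1 mice had no symptoms at 75 days and showed tremor and partial paralysis at 110 days, while WT-SOD1 mice stayed well. The WT-SOD1 and nontransgenic arrays are therefore called disease-free here.

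Cathepsins are made as inactive precursors, carried to endosomes and lysosomes through mannose 6-phosphate receptors, and cleaved there to active enzymes, partly by legumain. Most cathepsins are cysteine proteases, which cystatins block by filling the active site, whereas cathepsin D is an aspartic protease that cystatins do not inhibit. In the central nervous system microglia are rich in these enzymes, and cathepsin S and cystatin F are made chiefly by myeloid and other immune cells, whereas cystatin C is secreted widely, also by astrocytes and neurons.

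At 110 days 5 cathepsin genes and the cystatin F gene rose in G93A-SOD1 cord over disease-free cord of the same age, and none of the 9 genes fell. The rises ran between 1.84-fold for Ctsb and 5.33-fold for Cst7. The 6 genes make up 6 of 93 probe sets that were higher, or 6 of 9 tested here against a background of 1.38% of 6737 tested probe sets (limma, adjusted p under 0.05). Of the 6, Ctsz and Cst7 entered the test only through the G93A-SOD1 array at 110 days, the 1 array on which they exceeded the filter on low values, the median of all values (79.7). Among probe sets above the filter on 2 or more arrays, 4 of 7 of these genes were higher, beside 0.965% of 6423. A further 0.134% of all tested probe sets were lower. The median log2 difference of the 9 genes was 1.32, against -0.02 over all tested probe sets. The G93A-SOD1 array lay above all 4 disease-free arrays for all 9 genes, as it did for 16.9% of the tested probe sets. Each genotype and age had 1 array. The spread behind the p-values for G93A-SOD1 cord and for age is that between WT-SOD1 and nontransgenic arrays of the same age. It is drawn towards a value shared by all tested probe sets, and the single G93A-SOD1 array of an age is taken to vary to the same degree. In whole cord, more cells of a type and more RNA per cell cannot be told apart.

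**Figure D1:**
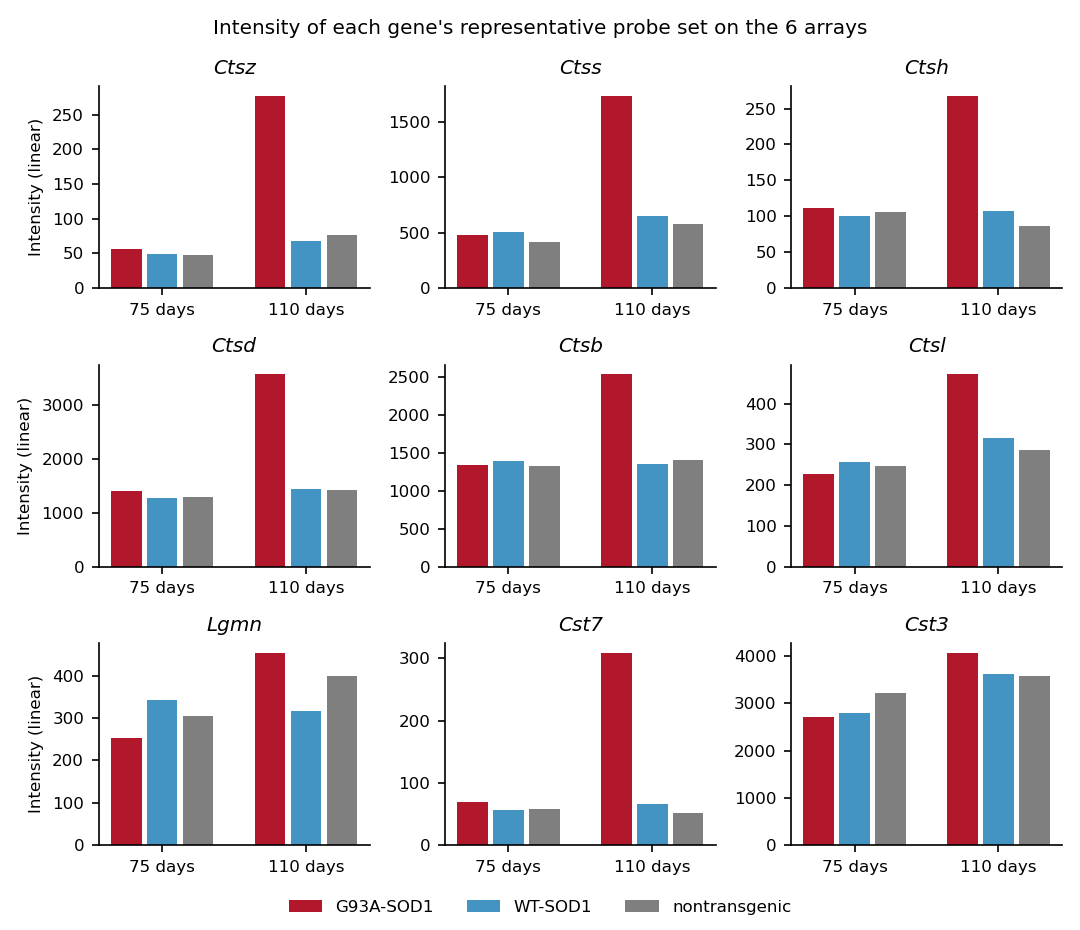
Intensity (linear, as deposited) of the probe set standing for each gene on the 6 arrays, by age, with G93A-SOD1, WT-SOD1 and nontransgenic cord side by side; each bar is 1 array and there are no error bars. The G93A-SOD1 bar at 110 days is the highest of the 6 in every panel, by 4.69-fold over the highest disease-free array for Cst7 and by 1.12-fold for Cst3. Levels are not comparable between panels.

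Ctsz, encoding cathepsin Z, a carboxypeptidase, had the largest fold among the protease genes that rose. Its probe set (92633_at) read 277 on the G93A-SOD1 array at 110 days, against 67.2 on the WT-SOD1 and 76.95 on the nontransgenic array of that age. At 75 days it read 56.4 in G93A-SOD1 cord, 48.4 in WT-SOD1 cord and 47.3 in nontransgenic cord. The array from paralysed mice stands alone, and the other 5 lie below the median of all values on the arrays, 79.7. The rise at 110 days was 3.86-fold (log2 difference 1.95 ± 0.14 SE, adjusted p = 0.00138), or 4.13-fold over WT-SOD1 and 3.60-fold over nontransgenic cord taken singly.

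Ctss encodes cathepsin S, an endopeptidase that cuts the invariant chain of MHC class II molecules and, unlike most cathepsins, stays active at neutral pH. Its probe set (98543_at) read 1736 in G93A-SOD1 cord at 110 days, against 652 in WT-SOD1 and 575 in nontransgenic cord. The 75-day arrays read 477 for G93A-SOD1, 508 for WT-SOD1 and 419 for nontransgenic cord, so that at this age the G93A-SOD1 value fell between the other two. At 110 days Ctss was 2.84-fold higher (1.50 ± 0.17 SE, adjusted p = 0.00702).

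Ctsh, the gene of the aminopeptidase cathepsin H (94834_at), read 268 in G93A-SOD1 cord at 110 days, against 107 in WT-SOD1 and 86.9 in nontransgenic cord. At 75 days its values were 111 in G93A-SOD1, 100.2 in WT-SOD1 and 106 in nontransgenic cord. Only the 110-day G93A-SOD1 array departs from a narrow band, in which the 4 disease-free arrays differed by at most 1.23-fold. The rise was 2.78-fold (1.47 ± 0.16 SE, adjusted p = 0.00702).

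Ctsd encodes cathepsin D, the main aspartic protease of lysosomes. Its probe set (93810_at) read 3571 in G93A-SOD1 cord at 110 days, against 1439 in WT-SOD1 and 1430 in nontransgenic cord, and 1412 in G93A-SOD1 cord at 75 days, against 1281 in WT-SOD1 and 1286 in nontransgenic cord. The 4 disease-free arrays differed by at most 1.12-fold, and the difference at 110 days was 2.49-fold (1.32 ± 0.13 SE, adjusted p = 0.00433). It was the 1 call among the 9 genes that every alternative treatment of the data kept.

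Ctsb, for cathepsin B, which acts both as an endopeptidase and as a dipeptidyl carboxypeptidase, has 4 probe sets. The one standing for the gene (94831_at) read 2535 in G93A-SOD1 cord at 110 days, against 1352 in WT-SOD1 and 1408 in nontransgenic cord. At 75 days it read 1339 in G93A-SOD1, 1397 in WT-SOD1 and 1330 in nontransgenic cord, with no separation of the genotypes. It was 1.84-fold higher at 110 days (0.88 ± 0.13 SE, adjusted p = 0.0235). The other probe sets gave smaller differences: 95608_at read 241 in G93A-SOD1 cord at 110 days, against 134 in WT-SOD1 and 161 in nontransgenic cord (log2 difference 0.72, adjusted p = 0.112). Probe set 92256_at read 139.9, against 105 and 116 in the same order of genotypes (log2 difference 0.34, adjusted p = 0.461). The last, 162271_f_at, read 57.2 to 66.5 on all 6 arrays and was too dim to be tested. The call for Ctsb thus rests on 1 of its 4 probe sets, and it was lost when arrays were scaled to 1 median (adjusted p = 0.0525).

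Ctsl and Lgmn did not pass the test. Ctsl, for the endopeptidase cathepsin L (101963_at), read 472 in G93A-SOD1 cord at 110 days, against 315 in WT-SOD1 and 287 in nontransgenic cord. At 75 days it read 227 in G93A-SOD1, 256 in WT-SOD1 and 248 in nontransgenic cord, so the G93A-SOD1 array was the lowest of the 6 at 75 days and the highest at 110 days. The difference at 110 days was 1.57-fold (0.65 ± 0.14 SE, adjusted p = 0.0922), and it ran between 0.58 and 0.72 on the log2 scale over 12 alternatives. Lgmn, whose product cleaves after asparagine (93261_at), read 454 in G93A-SOD1 cord at 110 days, against 316 in WT-SOD1 and 400.0 in nontransgenic cord, and 253 in G93A-SOD1 cord at 75 days, against 344 in WT-SOD1 and 304 in nontransgenic cord. It too was lowest in G93A-SOD1 cord at 75 days and highest there at 110 days, but the disease-free arrays of one age differed among themselves by nearly as much (0.35 ± 0.18 SE, 1.28-fold, adjusted p = 0.607 at 110 days).

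Of the inhibitor genes, Cst7 rose and Cst3 did not pass. Cst7, for cystatin F, an inhibitor that is itself sent to endosomes and lysosomes and acts on cathepsins there (102638_at), read 309 in G93A-SOD1 cord at 110 days, against 65.9 in WT-SOD1 and 50.9 in nontransgenic cord. At 75 days it read 69.1 in G93A-SOD1, 56.0 in WT-SOD1 and 57.8 in nontransgenic cord. As with Ctsz, 5 arrays lay below the median of all values and 1 far above it. The rise was 5.33-fold (2.41 ± 0.18 SE, adjusted p = 0.00138), or 4.69-fold over WT-SOD1 and 6.06-fold over nontransgenic cord taken singly. The G93A-SOD1 array at 110 days was the only one above the filter for 31 of the 93 probe sets that were higher at this age, those of Cst7 and Ctsz included. Cst3, for the secreted cystatin C (99586_at), read 4068 in G93A-SOD1 cord at 110 days, against 3625 in WT-SOD1 and 3581 in nontransgenic cord, a 1.13-fold difference that did not pass (0.18 ± 0.15 SE, adjusted p = 0.858). Its values at 75 days were 2713 in G93A-SOD1, 2786 in WT-SOD1 and 3216 in nontransgenic cord. A second Cst3 probe set (161522_i_at) read 508 in G93A-SOD1 cord at 110 days, against 276 in WT-SOD1 and 311 in nontransgenic cord. Its difference was 1.73-fold (0.79 ± 0.15 SE, adjusted p = 0.0571), so the 2 probe sets of Cst3 disagree in size while neither passed.

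**Figure D2:**
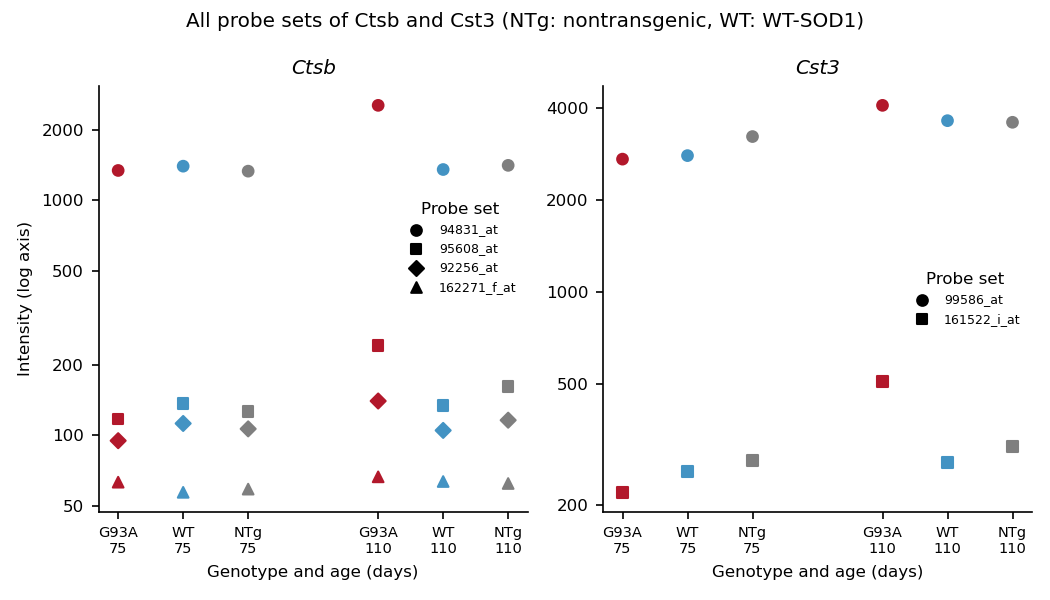
Intensity (log axis) of the 4 probe sets of Ctsb and the 2 of Cst3 on each array, with G93A-SOD1 left of WT-SOD1 and nontransgenic (NTg) cord at each age; each point is 1 array. At 110 days the G93A-SOD1 point of Ctsb is highest for each probe set, by 1.80-fold over the highest disease-free array for 94831_at and by 1.05-fold for 162271_f_at, and that of Cst3 by 1.12-fold for 99586_at and 1.63-fold for 161522_i_at.

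The start regions of the genes that rose are shown because these genes were higher on the same array. RefSeq (GRCm38.p6) windows of 300 bases, 250 before the transcription start and 50 from it, were at hand for 7 of the 9 genes, with 2 windows for Lgmn. Those of the 4 genes that rose and have a window lie at chr2:174438990-174439289 on the minus strand (Ctsz), chr3:95526536-95526835 on the plus strand (Ctss), chr7:142387778-142388077 on the minus strand (Ctsd) and chr2:150570165-150570464 on the plus strand (Cst7). They are written 5′ to 3′ on the strand of the gene, and capitals mark the motifs searched on both strands.
Ctsz: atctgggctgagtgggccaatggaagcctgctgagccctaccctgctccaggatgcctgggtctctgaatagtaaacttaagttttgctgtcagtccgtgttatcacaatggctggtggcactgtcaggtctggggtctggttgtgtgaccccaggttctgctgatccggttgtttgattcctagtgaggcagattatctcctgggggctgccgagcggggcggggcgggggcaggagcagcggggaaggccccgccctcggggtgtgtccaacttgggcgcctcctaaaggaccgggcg
Ctss: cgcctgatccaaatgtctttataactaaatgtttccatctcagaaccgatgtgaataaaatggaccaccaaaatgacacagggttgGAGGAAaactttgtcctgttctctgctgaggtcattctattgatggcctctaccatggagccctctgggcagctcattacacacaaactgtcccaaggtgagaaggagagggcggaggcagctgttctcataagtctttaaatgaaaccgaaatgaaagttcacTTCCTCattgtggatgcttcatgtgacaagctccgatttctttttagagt
Ctsd: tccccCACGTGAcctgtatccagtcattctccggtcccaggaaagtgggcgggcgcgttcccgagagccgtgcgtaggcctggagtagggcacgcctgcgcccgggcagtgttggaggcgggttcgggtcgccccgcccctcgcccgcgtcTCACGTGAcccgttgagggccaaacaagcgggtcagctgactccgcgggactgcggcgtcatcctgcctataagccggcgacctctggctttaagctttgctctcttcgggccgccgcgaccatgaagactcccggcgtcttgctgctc
Cst7: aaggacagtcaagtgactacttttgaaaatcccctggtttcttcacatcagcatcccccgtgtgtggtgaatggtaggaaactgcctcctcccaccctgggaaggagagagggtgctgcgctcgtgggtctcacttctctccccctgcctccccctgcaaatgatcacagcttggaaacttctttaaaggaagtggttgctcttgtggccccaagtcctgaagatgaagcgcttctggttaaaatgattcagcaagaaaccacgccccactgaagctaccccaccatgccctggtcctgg
The first motif was CACGTG, the E-box at the heart of the element through which TFEB and its relatives act on lysosomal genes, together with its extension TCACGTG, which overlaps it. The Ctsd window holds CACGTG at 2 places, which begin at -245 and -98 from the start, and TCACGTG on at least 1 strand at both. CACGTG occurs in windows of Ctsd, Ctsl and Lgmn, that is in 3 of 8, and in 7.2% of 32851 windows of all genes. TCACGTG occurs in windows of Ctsd and Lgmn, and in 3.8% of all windows. The second motif was GAGGAA, the core bound by the myeloid factor PU.1, which the Ctss window holds 2 times, at -164 on the gene's strand and at the start on the opposite strand. GAGGAA is also in the Cst3 window and in 28.3% of all windows. These letters are absent from the windows of Ctsz and Cst7, and a match is a description of sequence only.

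At 75 days, before symptoms, none of the 9 genes passed between G93A-SOD1 cord and disease-free cord, and neither did any tested probe set (0% called by limma, although 664 probe sets, and 0 of these 9 genes, had an unadjusted p under 0.05). The log2 differences ran between -0.36 ± 0.18 SE for Lgmn (adjusted p = 0.558) and 0.28 ± 0.18 SE for Cst7 (adjusted p = 0.637), with a median of 0.05. Those of Ctsz, Ctsd, Ctsh and Ctss were 0.24, 0.14, 0.11 and 0.05, and those of Ctsb, Cst3 and Ctsl were -0.03, -0.14 and -0.15. The G93A-SOD1 array lay above all 4 disease-free arrays for Ctsh and Cst7, which 23.9% of tested probe sets also did, and below all 4 for Ctsl, Lgmn and Cst3, which 34.7% did. The count of these genes called stayed at 0 in every alternative run at this age.

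**Figure D3:**
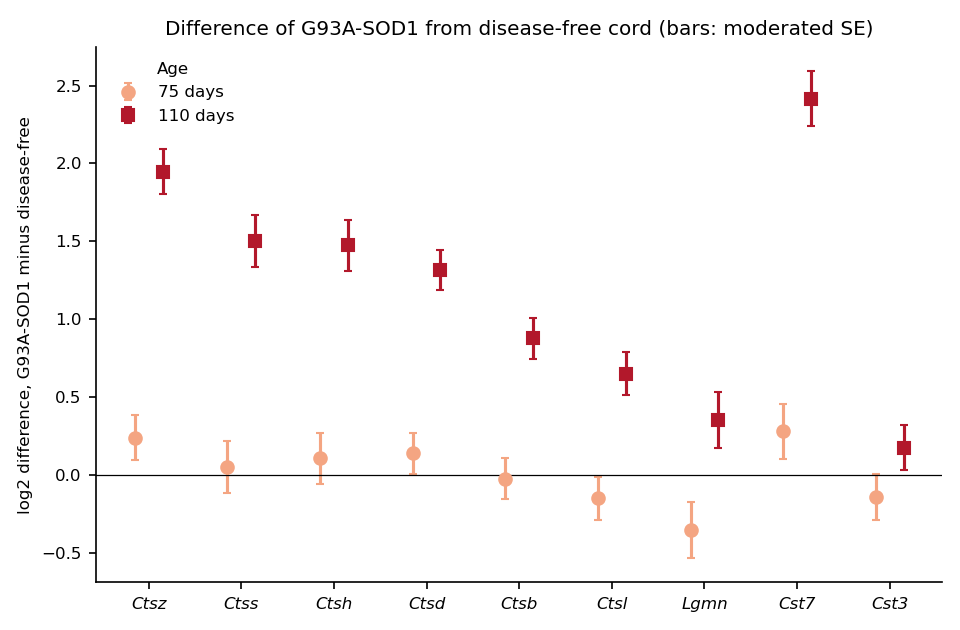
Difference of G93A-SOD1 from disease-free cord on the log2 scale at 75 days (circles) and 110 days (squares) for each gene; bars are the moderated SE of the fit with 6 arrays. The 75-day points lie between -0.36 and 0.28 around 0, and the 110-day points between 0.18 for Cst3 and 2.41 for Cst7.

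Whether the G93A-SOD1 difference changed between the ages was tested by its own contrast, 110-day difference minus 75-day difference. Cst7 (2.14 ± 0.25 SE, adjusted p = 0.0281) and Ctsz (1.71 ± 0.20 SE, adjusted p = 0.0294) passed, against 0.416% of all tested probe sets. Both entered the test only through the G93A-SOD1 array at 110 days, on which the contrast also rests, and none of the 7 genes above the filter on 2 or more arrays passed (0 of 7, beside 0.202% higher among all such probe sets). The values of Ctss (1.45, adjusted p = 0.0757), Ctsh (1.37, 0.0832) and Ctsd (1.18, 0.0644) did not pass, nor did those of Ctsb (0.90), Ctsl (0.80), Lgmn (0.71) and Cst3 (0.32), whose adjusted p ranged between 0.166 and 0.982. This count moved when 1 disease-free array was left out, and it was 0 with the arrays scaled to 1 median. Why it moved was not tested. All 9 values were above 0 in the fit with 6 arrays.

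Within G93A-SOD1 cord, 110 against 75 days, 7 of the 9 genes were higher (1.1% of all tested probe sets were called in either direction), with 1 array at each age. The log2 differences were 2.30 ± 0.17 SE for Ctsz, 2.16 ± 0.20 for Cst7, 1.86 ± 0.19 for Ctss, 1.34 ± 0.15 for Ctsd, 1.27 ± 0.19 for Ctsh, 1.06 ± 0.16 for Ctsl and 0.92 ± 0.15 for Ctsb, with adjusted p between 0.00238 for Ctsz and 0.046 for Ctsb. Lgmn (0.84, adjusted p = 0.195) and Cst3 (0.58, adjusted p = 0.293) did not pass. No disease-free array enters these differences, so leaving 1 out changes only the spread on which they are tested. The second Cst3 probe set was higher in this comparison (1.20 ± 0.17 SE, adjusted p = 0.0241). These differences share arrays with those against disease-free cord and are not independent of them. Ctsz and Cst7 entered this test only through the G93A-SOD1 array at 110 days, on which the differences also rest. For this comparison no count was made among probe sets above the filter on 2 or more arrays.

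Age gave no call in disease-free cord. None of the 9 passed between 110 and 75 days (0.0148% of probe sets called by limma, while 2 of the 9 had an unadjusted p under 0.05). The widest differences were those of Ctsz (0.59 ± 0.12 SE, adjusted p = 0.921), with 67.2 and 76.95 at 110 days against 48.4 and 47.3 at 75 days in WT-SOD1 and nontransgenic cord, and of Ctss (0.41 ± 0.14 SE, adjusted p = 0.998). For both of these genes each disease-free array at 110 days lay above each one at 75 days, and the same held for Ctsd, Ctsl and Cst3. The share of all tested probe sets with this order was not counted, so the order in these genes cannot be weighed and is a description only. The wild-type transgene went with no call either: over both ages, WT-SOD1 against nontransgenic cord gave log2 differences between -0.09 for Cst3 and 0.23 for Ctss (0.19 SE for each, adjusted p = 1, 0.104% of probe sets called, and 0 of the 9 with an unadjusted p under 0.05). This last test has 1 residual degree of freedom, and its spread is pooled over all probe sets.

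**Figure D4:**
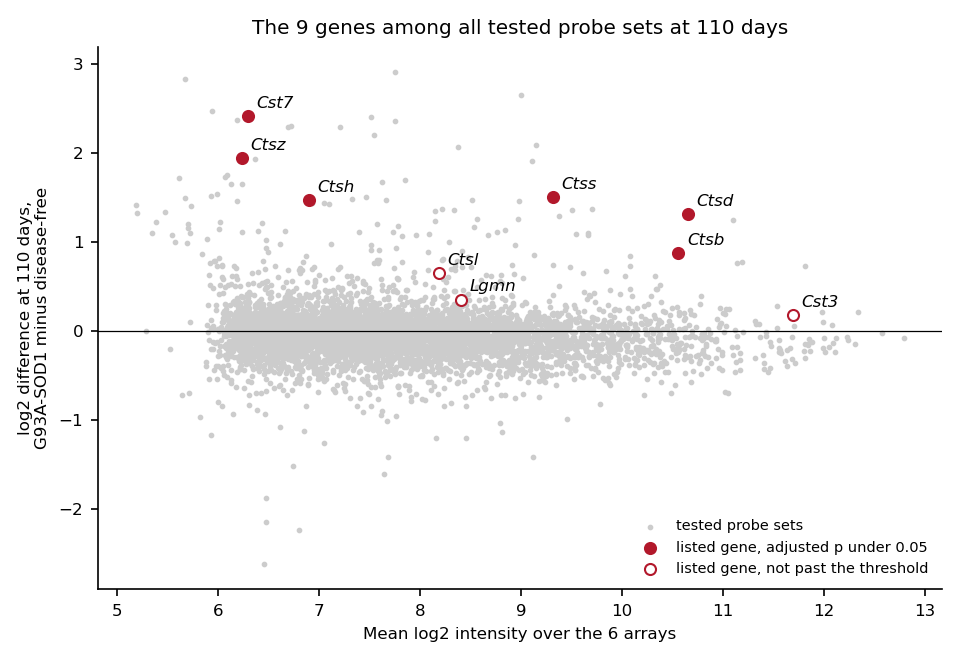
Log2 difference of G93A-SOD1 from disease-free cord at 110 days against the mean log2 intensity over the 6 arrays, for all 6737 tested probe sets (grey) and the 9 genes (filled where adjusted p was under 0.05, open where not). The 6 genes that passed lie above most grey points of like intensity, from Cst7 and Ctsz among dim to Ctsd and Ctsb among bright probe sets, while Cst3 at 0.18 lies within the grey band.

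The other lysosomal protease genes on the array gave no call. Of 12 other cathepsins and lysosomal proteases measured, 7 were bright enough to be tested, and 0 passed at 110 days in either direction (median log2 difference -0.03). The nearest to the threshold was Ctsa, for the serine carboxypeptidase cathepsin A, which read 484 in G93A-SOD1 cord, against 261 in WT-SOD1 and 293 in nontransgenic cord at that age (0.81 ± 0.15 SE, adjusted p = 0.0552), followed by Ctse (0.35, adjusted p = 0.488). Ctsc, for cathepsin C, a main target of cystatin F, read 18.5 to 21.5 on all 6 arrays, under the floor of 31 that was set on intensities, and was not tested. Of 8 other cystatins and protease inhibitors, 3 were tested and 0 passed (median 0.15), with 0.41 for Cstb, the gene of the cytosolic inhibitor cystatin B (adjusted p = 0.311), and 0.15 for Serpinb6a. The genes that sort lysosomal enzymes gave 0 calls among 10 tested of 14 measured (median -0.02), with -0.36 for Igf2r, a mannose 6-phosphate receptor, and 0.34 for the endocytic receptor gene Lrp1.

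Other lysosomal enzymes and membrane proteins rose in part. Of 28 measured genes 23 were tested, 5 rose and 0 fell, with a median of 0.20. Among all tested probe sets 1.38% were higher and 0.134% lower at 110 days. Gusb, for beta-glucuronidase, rose 2.82-fold (1.50 ± 0.13 SE, adjusted p = 0.00329), the tetraspanin gene Cd63 2.77-fold, Laptm5, a lysosomal membrane protein of blood-derived cells that is also in the microglia list, 2.40-fold, and Man2b1, for lysosomal alpha-mannosidase, 2.27-fold. Gusb entered the test only through the G93A-SOD1 array at 110 days, on which it read 118, against 48.7 or less on the other arrays. Genes for MHC class II molecules and the invariant chain, the substrate of cathepsin S, gave 0 calls among 8 tested of 11 measured (median 0.05), with 0.50 for Cd74 (adjusted p = 0.422) and 0.44 for H2-DMb1. Among transcription factors of lysosomal and myeloid genes 2 of 6 tested rose, beside the same 1.38% of all tested probe sets. They were Cebpb, 1.82-fold (adjusted p = 0.0262), and Cebpa, 1.71-fold (adjusted p = 0.0478), both C/EBP factors of myeloid cells. Cebpb, like Gusb, entered the test only through the G93A-SOD1 array at 110 days. Spi1, the gene of PU.1, read 111 in G93A-SOD1 cord at 110 days, against 84.4 and 71.9 in WT-SOD1 and nontransgenic cord (0.51, adjusted p = 0.246), and Tfeb read 55.3 to 64.3 on the 6 arrays and was not tested. None of these lists had a call at 75 days.

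**Figure D5:**
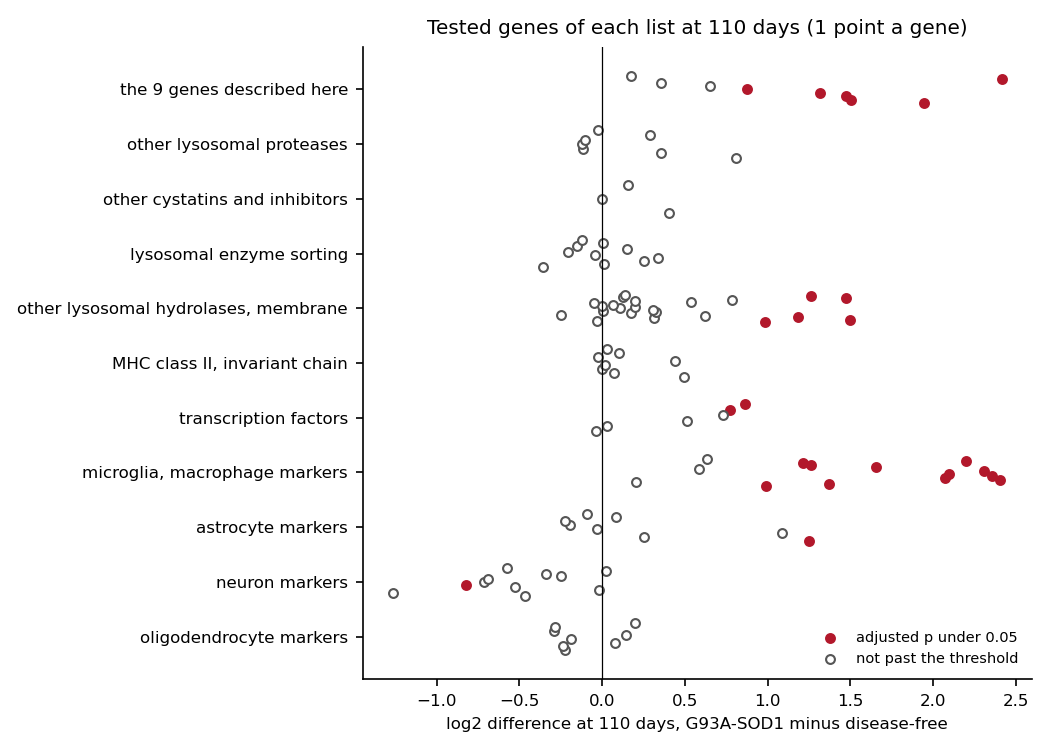
Log2 difference of G93A-SOD1 from disease-free cord at 110 days for the tested genes of each list, 1 point a gene, filled where adjusted p was under 0.05. The 9 genes (median 1.32) and the microglia and macrophage markers (median 1.51) spread furthest above 0, and the other lysosomal proteases lie around 0 (median -0.03). All lists were chosen with earlier results of these data known.

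Markers of microglia and macrophages moved with the protease genes. Of 24 listed markers 20 were measured and 14 tested. At 110 days 11 rose while 0 fell (median 1.51, or 1.10 over all 20), beside 1.38% higher and 0.134% lower among all tested probe sets. Among those that rose, Aif1 and Cd53 entered the test only through the G93A-SOD1 array at 110 days. Differences above 0 were found for 18 of the 20, the other 2 being under the floor on all arrays. The summed intensity of the 20 was 8880 in G93A-SOD1 cord at 110 days, against 2836 in WT-SOD1 and 2688 in nontransgenic cord. At 75 days the sum was 2841 in G93A-SOD1 cord, against 2524 in WT-SOD1 and 2501 in nontransgenic cord. Tyrobp, a signalling adaptor of microglial receptors, rose 5.30-fold, C1qb of complement C1q 5.13-fold, the endosomal glycoprotein gene Cd68 4.95-fold and Mpeg1, for a pore-forming protein, 4.60-fold. The 11 markers that rose ran between 1.99-fold for Aif1 and 5.30-fold for Tyrobp, a range that holds the rises of Ctsz, Ctss, Ctsh and Ctsd, with that of Ctsb (1.84-fold) under it and that of Cst7 (5.33-fold) above it. Of the markers that define the cell type, Csf1r rose 2.58-fold, whereas Cx3cr1 differed by 0.20 (adjusted p = 0.899), Itgam read 56.0, against 46.6 and 37.0 in WT-SOD1 and nontransgenic cord, below the median of all values, and Ptprc and Fcer1g read under the floor. The part of cell numbers in the rises of the protease genes was not tested.

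Markers of other cells gave fewer calls than those of microglia and macrophages. Among all tested probe sets 1.38% were higher and 0.134% lower at 110 days, with a median log2 difference of -0.02. Among astrocyte markers 1 of 8 tested rose, Gfap by 2.38-fold (median 0.03), and among neuron markers 1 of 11 fell, the neurofilament gene Nefm by 0.82 on the log2 scale (median -0.53). Oligodendrocyte (8 tested, median -0.21), endothelial (6, -0.08), neutrophil and blood (8, -0.09) and lymphocyte markers (6, -0.02) had 0 calls. Of 6 tested meningeal and fibroblast markers 2 rose, Igfbp2 3.19-fold and Fmod 2.03-fold.

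By root-mean-square distance between log2 profiles over the 6 arrays, each centred on its mean, the nearest of 5198 other tested genes was C1qb for Ctsz (0.15 log2 units, then C1qc and C1qa), Ly86 for Ctss (0.15, then B2m and Emp1), Gusb for Ctsh (0.08, then Ifit3 and Hbegf) and Rhoj for Ctsd (0.06, then Lgals3 and Mylk). Clu was nearest to Ctsb (0.05, then Lgals3bp and Pld4) and Ezr to Ctsl (0.08, then Clu and Anxa2). The nearest profile to Lgmn was that of Itgav (0.05, then Klf6 and Ppib), to Cst7 that of Cd68 (0.09, then Cd52 and Serpina3n), and to Cst3 that of Rps28 (0.06, then Laptm4a and Scp2). The 6 points share their arrays, and for the genes that rose 1 array sets most of each profile.

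Values that describe the arrays differed in ways that genotype and age do not name. The bacterial hybridisation controls averaged 1590 on the WT-SOD1 array at 110 days and 1198 on the nontransgenic array at 75 days, against 645 to 850 on the other 4. The same 2 arrays had the highest summed intensity of 6 genes known from cerebellum (Gabra6, Zic1, Car8, Calb1, Cbln1 and Pcp2), 3360 and 2857. The sum was 1053 in G93A-SOD1 cord at 110 days and 994 at 75 days, against 1879 in nontransgenic cord at 110 days and 1407 in WT-SOD1 cord at 75 days. In the G93A-SOD1 difference at 110 days these 6 genes had a median of -1.42 with 0 calls. On the 4 arrays with lower control levels alone, G93A-SOD1 cord at 110 days could be tested only against 1 mean of both ages, from nontransgenic cord at 110 days and WT-SOD1 cord at 75 days. That comparison, which is not matched for age, gave a log2 difference of 0.80 for Ctsl, and its calls are not counted here. The 3′ to 5′ signal ratio was 1.69 to 2.39 for actin and 1.08 to 1.49 for Gapdh, with the G93A-SOD1 array at 110 days (1.90 and 1.30) inside both ranges. The level of Sod1 at 110 days was 1716 in G93A-SOD1, 1906 in WT-SOD1 and 1498 in nontransgenic cord, and at 75 days 1738 in G93A-SOD1, 1583 in WT-SOD1 and 1037 in nontransgenic cord. No Sod1 difference passed, and whether the mouse probe set detects the transgenes was not tested.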

How the data were processed

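The deposited series table gives 1 linear intensity per probe set and array. Per the labels' protocols, each array received biotin-labelled cRNA made from polyadenylated RNA of 4 cords and was hybridised once. The authors' summary of probes and scaling of arrays: not given in the sources used here. Medians lay between 77.7 and 80.9, and intensities were used as deposited, raised to a floor of 31 (the 25th percentile) and logged (log2). Testing required 1 or more arrays above the pooled median of 79.7. This left 6737 of 12422 probe sets, after 66 controls were set aside. Of the 12422, 10833 have 1 symbol, 396 several and 1193 none here.

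limma 3.58.1 in R 4.3.3 (lmFit, eBayes) was fitted with 4 means on 6 arrays: disease-free and G93A-SOD1 at each age, with 2 residual and 5.13 prior degrees of freedom, and Benjamini-Hochberg adjustment over all tested probe sets. WT-SOD1 was compared with nontransgenic cord on 4 arrays with age as a term. Folds are antilogs of these log2 differences. Alternatives changed the floor, filter, scaling, comparison arrays, spike-in term and probe set, or left out 1 disease-free array.

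The members and lists were chosen with earlier results of these data known. All 9 members are described. From each other list up to 4 calls with the largest differences at 110 days, or 2 values where none was called, were named, and for each member the 3 nearest profiles. Ctsa and Ctse fall under this rule. Ctsc, Spi1, Tfeb, Csf1r, Aif1, Cd53, Cx3cr1, Itgam, Ptprc, Fcer1g and the cerebellar genes were added to it after their values were seen. The number of arrays limits the precision.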

Additional observations from a re-analysis of the deposited data

Results flagged for a closer look

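The change of the G93A-SOD1 difference between the ages passed its own test for 2 of the 9 genes. For Cst7 the log2 difference from disease-free cord was 2.41 at 110 days and 0.28 at 75 days, a change of 2.14 ± 0.25 SE (limma, adjusted p = 0.0281). For Ctsz it was 1.95 at 110 days and 0.24 at 75 days, a change of 1.71 ± 0.20 SE (adjusted p = 0.0294). Each difference rests on 1 G93A-SOD1 array at each age, and both genes read below the median of all values on the other 5 arrays. Over the 12 alternatives the change ran between 1.95 and 2.32 for Cst7 and between 1.61 and 1.95 for Ctsz, and each passed in 9 of them, with adjusted p up to 0.341 and 0.235. Both genes entered the test only because the G93A-SOD1 array at 110 days, on which the change also rests, exceeded the filter on low values, and 0 of the 7 genes above the filter on 2 or more arrays passed. For Cst7 and Ctsz the fits in which they did not pass were those with the higher floor, with no filter and with arrays scaled to 1 median.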

How the results depend on the processing

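Every log2 difference of the 9 genes at 110 days stayed above 0 in the 12 alternatives that compare within an age and keep the probe set, with ranges of 2.23 to 2.60 for Cst7, 1.85 to 2.05 for Ctsz, 1.39 to 1.62 for Ctss, 1.32 to 1.63 for Ctsh, 1.31 to 1.39 for Ctsd and 0.83 to 0.99 for Ctsb. The count of 6 genes called at 110 days was 1 with no filter on low values (Ctsd; 2882 probe sets then had a residual spread of 0 and prior degrees of freedom fell to 0.41), 5 with arrays scaled to 1 median, 7 with a term for the spike-in level and 6 to 7 with 1 disease-free array left out. At 75 days it was 0 throughout. For the change between ages, 2 genes became 0 with the floor at the 40th percentile, 1 with no filter, 0 with median scaling, 3 with quantile normalization, 5 against nontransgenic or WT-SOD1 cord alone, 5 with the spike-in term and 4 to 6 with 1 array left out. Within G93A-SOD1 cord, 7 became 4 with the higher floor, 1 with no filter and 4 with median scaling. Why these counts moved was not tested.

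Over all tested probe sets, the 102 called at 110 days became 66 with the higher floor, 42 with no filter, 225 with the spike-in term and 148 to 591 with 1 array left out (591 without the WT-SOD1 array at 110 days). The 0 called at 75 days became 50 with no filter, 54 against nontransgenic and 20 against WT-SOD1 cord, and 13 to 116 with 1 array left out. The 28 called for the change became 3 with the higher floor, 76 with no filter, 16 with the filter on the mean, 2 with median scaling, 70 against either disease-free genotype, 78 with the spike-in term and 51 to 135 with 1 array left out. The 74 within G93A-SOD1 cord became 37 with the higher floor, 49 with the filter on the mean, 45 with median scaling, 118 against either disease-free genotype, 174 with the spike-in term and 113 to 274 with 1 array left out. The 1 for age in disease-free cord became 0 with no filter, 15 against either genotype, 3 with the spike-in term and 2 to 17 with 1 array left out. The 7 for WT-SOD1 over nontransgenic cord became 0 with the higher floor, with no filter and with median scaling. The cause was not tested.

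Uncalled log2 differences near 0 changed sign. At 75 days, Ctsb (-0.025) was 0.016 with quantile normalization and -0.061 to 0.0098 with 1 array left out. Ctss (0.05) was -0.065 against WT-SOD1 and -0.089 to 0.19 with 1 array left out. On the 4 arrays with lower spike-in levels, where G93A-SOD1 cord at 75 days was set against 1 mean of nontransgenic cord at 110 days and WT-SOD1 cord at 75 days, Ctss was -0.18 and Ctsz -0.11. Against the WT-SOD1 array of the same age alone, Ctsz was 0.22. For age in disease-free cord, Cst7 (0.025) was -0.060 with the spike-in term, Ctsb (0.017) was -0.091 with quantile normalization, and with 1 array left out Cst7 ranged between -0.16 and 0.21, Ctsb between -0.018 and 0.053, Ctsh between -0.24 and 0.058 and Lgmn between -0.034 and 0.31. For WT-SOD1 over nontransgenic cord, Ctsb was -0.013 and Ctsd -0.017 with median scaling, and Ctsb was -0.034 and -0.075 by probe sets 92256_at and 95608_at. Each genotype and age has 1 array, and only the test of WT-SOD1 over nontransgenic cord had age as a separate term. The 4-array alternative was chosen after seeing the data. Signal near the floor limits what can be seen of Ctsz and Cst7 in disease-free cord, which read 47.3 to 76.95 and 50.9 to 65.9, above the floor of 31.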
